A study of Mus musculus with 4 samples.

Results

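Levels of 10 genes that mark pluripotent cells and the germ line were followed in neonatal mouse testis: Sall4, Pou5f1, Lin28a, Dppa3, Dppa4, Utf1, Nanos3, Tfap2c, Prdm1 and Dnd1. The members were taken by gene symbol, as all probe sets whose single symbol in the array annotation is one of these names. This gave 15 of the 45101 probe sets of the table, for 9 of the 10 genes, because the annotation gave no probe set the symbol Nanos3, which is not analysed here. Testes of 129 strain mice at 2 days post partum (dpp) lay in organ culture for 24 h with either dimethyl sulfoxide alone, the vehicle, or WIN 18,446 at 1 µM, which blocks the enzymes that make retinoic acid. Both groups shared the strain, the age and medium with 10% fetal bovine serum, and RNA of the whole testis was read on Affymetrix expression arrays, with 2 samples per group. Sample numbers are all the labels give, with no word on separate animals or cultures, so the spread behind each p-value may be only technical.

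In the mouse, a small group of early embryonic cells is set aside as primordial germ cells by Prdm1 and its target Tfap2c, and these cells keep or regain parts of the gene network of pluripotent cells, with Pou5f1 (OCT4) and Sall4 among its transcription factors. Lin28a blocks the maturation of let-7 microRNAs, and the RNA-binding proteins Nanos3 and Dnd1 keep germ cells alive. Around birth, male germ cells are prospermatogonia that stop expressing much of this network, while those that become stem spermatogonia keep some of it. Retinoic acid drives the differentiation of spermatogonia. The whole testis was measured, so fewer germ cells and less RNA per germ cell cannot be told apart.

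To show the sequence upstream of these genes, promoters were read from RefSeq. RefSeq's table for the assembly GRCm38.p6 held windows for 5 of the 10 genes (Lin28a, Utf1, Nanos3, Prdm1 and Pou5f1, the last with 2 starts). Each window runs from 250 bases before to 50 after an annotated start. The 3 windows shown belong to members described further on with unlike values: Pou5f1, whose groups overlapped, Lin28a, which read higher without passing the test, and Prdm1, which read lower without passing it. They are written 5′ to 3′ along the gene, and capitals mark matches to the motifs searched:
Pou5f1 (chr17:35505782-35506081, plus strand): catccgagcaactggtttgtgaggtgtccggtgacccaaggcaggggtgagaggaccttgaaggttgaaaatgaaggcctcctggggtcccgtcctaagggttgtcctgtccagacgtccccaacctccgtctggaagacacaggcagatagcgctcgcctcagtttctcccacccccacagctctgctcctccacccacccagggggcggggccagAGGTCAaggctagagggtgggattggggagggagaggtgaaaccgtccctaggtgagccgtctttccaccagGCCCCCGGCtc
Lin28a (chr4:134018767-134019066, minus strand): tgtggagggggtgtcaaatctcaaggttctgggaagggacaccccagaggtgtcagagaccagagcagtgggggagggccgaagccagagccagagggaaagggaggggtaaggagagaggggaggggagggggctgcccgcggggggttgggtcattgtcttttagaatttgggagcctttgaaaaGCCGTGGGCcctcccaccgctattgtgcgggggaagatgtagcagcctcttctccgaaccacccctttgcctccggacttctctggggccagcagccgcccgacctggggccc
Prdm1 (chr10:44458699-44458998, minus strand): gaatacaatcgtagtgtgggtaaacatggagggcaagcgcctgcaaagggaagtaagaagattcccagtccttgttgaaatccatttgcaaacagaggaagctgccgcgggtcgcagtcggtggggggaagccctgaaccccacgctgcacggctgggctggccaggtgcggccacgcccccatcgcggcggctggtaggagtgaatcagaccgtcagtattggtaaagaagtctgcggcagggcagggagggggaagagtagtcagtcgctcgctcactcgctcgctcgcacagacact

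The motifs, searched on both strands, were the octamer ATGCAAAT that OCT4 binds, the nuclear receptor core motif AGGTCA, alone or as a direct repeat with a spacer of 2 or 5 bases as retinoic acid receptors use it, the AP-2 motif GCCNNNGGC and AATATT, an AT-rich motif of SALL4. The Pou5f1 window shown holds AGGTCA from -33 to -28, counted from the start. It is the only 1 of the 6 member windows with this motif, which 16.3% of all 32851 windows of this length hold. The other Pou5f1 window holds no match to any motif, and genes without a window, Sall4 and Tfap2c among them, were not searched. The AP-2 motif was found in 3 of the 6, those of Pou5f1, Lin28a and Nanos3, against 16.6% of all windows. Neither direct repeat, the octamer nor AATATT was found in any of the 6, and 0.00913% of all windows hold each repeat, 1.74% the octamer and 6.81% AATATT. A match is a description of the letters in this window and not a binding site.

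The value of each probe set is a log2 level, so 1 unit is a 2-fold difference, and each difference is the treated mean less the vehicle mean. The highest bacterial control probe set, which has no target in mouse RNA, read 2.22, and values at or below it were taken as background. Probe sets whose 4-array mean reached 5 entered the limma test, 20895 in all, among them 9 member probe sets of 7 genes. An adjusted p under 0.05 (Benjamini-Hochberg, over all probe sets tested) is called here. On simulated data, false calls made up more than this nominal share in every run, so the calls below are less certain than their adjusted p. The arrays had median levels of 3.72 to 3.83. Treated array 1 stood apart in the 5' control probe set of 18S ribosomal RNA, at 6.55 against 8.12 to 8.67 on the other arrays.

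A Sall4 probe set and a Tfap2c probe set were called lower with WIN 18,446, and no member was called higher. Neither call held in every alternative fit given below. Of the 9 member probe sets tested, 2 were called lower, 0 higher and 7 were not called, where 2.91% of all probe sets tested were called lower, 2.27% higher and 5.18% in either direction. Differences ran from -1.10 for Prdm1 to 0.72 for a probe set of Lin28a, 6 of them negative and 3 positive. Their median was -0.46, against -0.0184 over all probe sets tested. Vehicle and treated values were fully separated in 7 of the 9, where this held for 53.1% of all probe sets tested. Prdm1, included in these counts and the median, passed the level filter through its vehicle values alone, which favours a negative difference. Tfap2c and Lin28a each count with more than a single probe set. The members were chosen with earlier results of these data known, so their shares are not independent results. Of all probe sets tested, limma gave 4598 an unadjusted p under 0.05.

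**Figure D1:**
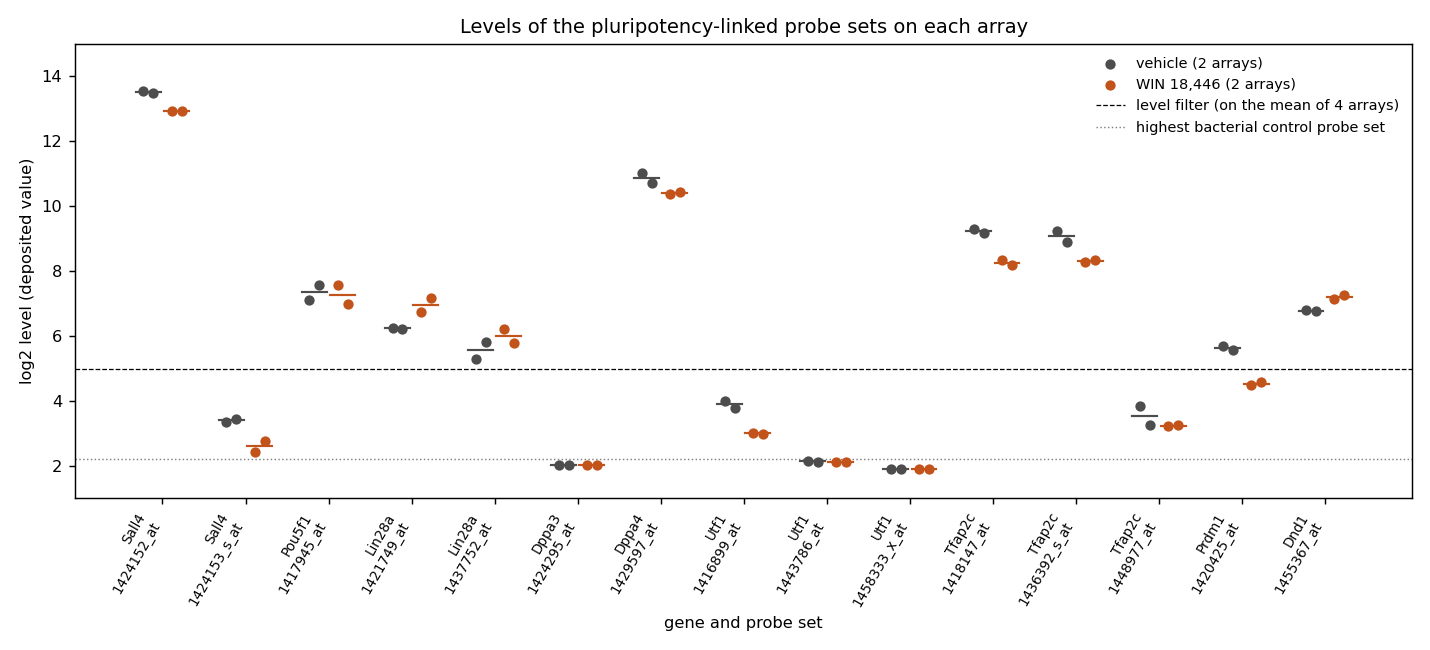
Log2 level (vertical axis) of each of the 15 member probe sets (horizontal axis) on the 2 vehicle and the 2 WIN 18,446 arrays, with a short line at each group mean. The dashed line marks the level of 5 that the mean of the 4 arrays had to reach for a test, and the dotted line the background of 2.22. Among the probe sets tested, both treated arrays lie below both vehicle arrays for Sall4, Dppa4, Prdm1 and the brighter Tfap2c probe sets. They lie above them for Dnd1 and 1 of the Lin28a probe sets. Among those under the level filter, they also lie below for Sall4 1424153_s_at, Utf1 1416899_at and, by 0.02, Tfap2c 1448977_at.

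Among the transcription factors, Sall4, a zinc finger protein needed to maintain germ cells and for spermatogonial differentiation, read 13.55 and 13.50 with vehicle and 12.93 on both treated arrays (probe set 1424152_at). Both treated arrays were thus below both vehicle arrays, by 0.57 or more. The log2 difference was -0.60 (95% interval -0.75 to -0.45, SE 0.06, limma adjusted p = 0.0157), which makes the vehicle mean 1.51-fold the treated mean. Of all probe sets tested, 7.47% had a difference this low or lower. A second Sall4 probe set, 1424153_s_at, read 3.36 and 3.44 with vehicle and 2.44 and 2.77 with WIN 18,446, also without overlap. Its mean over the arrays was under the level filter, and its difference of -0.79 has no test. The suffix s_at marks probe sets whose probes can match more than 1 transcript. The Sall4 call was lost without vehicle array 1 (adjusted p = 0.28) and without vehicle array 2 (0.173), where limma called 0 probe sets in all and gave 2455 and 2820 an unadjusted p under 0.05. It was also lost without a level filter (0.0799) and without a variance trend (0.0697), while the difference stayed between -0.64 and -0.57 over the 13 alternatives (adjusted p from 0.00494 to 0.28).

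Tfap2c, which encodes the transcription factor AP-2 gamma, has 3 probe sets on the array. With 1418147_at it read 9.29 and 9.17 with vehicle and 8.34 and 8.18 with WIN 18,446. The groups were 0.84 apart at their closest, against gaps of 0.12 and 0.15 within them. The level fell by 0.97 log2 units (95% interval -1.39 to -0.56, SE 0.16, adjusted p = 0.0409). The vehicle mean was 1.96-fold the treated mean. The probe set 1436392_s_at read 9.24 and 8.90 with vehicle and 8.27 and 8.34 with WIN 18,446, a difference of -0.77 that was not called (95% interval -1.24 to -0.29, adjusted p = 0.0903). The third, 1448977_at, stood near background at 3.83 and 3.27 with vehicle and 3.23 and 3.25 with WIN 18,446, so that 1 vehicle array was level with the treated ones. The Tfap2c call of 1418147_at was lost when any 1 of the 4 arrays was left out (adjusted p 0.34 and 0.242 without vehicle array 1 and 2, 0.0612 and 0.0615 without treated array 1 and 2), without the level filter (0.122) and without a variance trend (0.0511), and its difference stayed between -1.05 and -0.90 (adjusted p from 0.0179 to 0.34 over 13 alternatives).

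Prdm1, the zinc finger repressor known as BLIMP1 that starts germ cell specification, read 5.70 and 5.58 with vehicle and 4.49 and 4.58 with WIN 18,446. Its groups were 1.00 apart at their closest, the widest such gap among the members tested. The difference of -1.10 (95% interval -1.69 to -0.51) was not called, with an adjusted p of 0.066. Its mean of 5.09 is just over the level filter, which it passed through the vehicle arrays alone, both treated values being under 5. It was called in 2 of 12 alternatives, without a variance trend (adjusted p = 0.0384) and with 1 probe set per gene (0.0456), with adjusted p-values up to 0.347. Prdm1 also acts in endothelial and immune cells. Of 5 tested endothelial markers, 1 fell and the median difference was -0.92, with list means of 8.42 and 8.61 for the vehicle samples against 7.73 and 7.69 for the treated ones, and the part of these cells in the Prdm1 values was not tested.

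Pou5f1, the POU domain factor at the centre of the pluripotency network, read 7.12 and 7.58 with vehicle and 7.57 and 7.0 with WIN 18,446. The groups overlapped, and the difference of -0.07 was smaller than the spread within either group. Its 95% interval, -0.81 to 0.68, leaves room for a change of the size seen for Sall4 in either direction (adjusted p = 0.925). The sign was not stable: it turned to 0.0028 after quantile normalization and to 0.16 and 0.22 when vehicle array 2 or treated array 2 was left out. Utf1, a chromatin-bound factor of embryonic stem cells and early spermatogonia, was low in all 3 of its probe sets. The probe set 1416899_at read 4.01 and 3.79 with vehicle and 3.02 and 2.98 with WIN 18,446, without overlap, and at a mean of 3.45 it was not tested. The other two Utf1 probe sets were at or below 2.16 on all arrays and thus at background.

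Of the developmental pluripotency-associated genes, Dppa4 was read well above background and Dppa3 was not. Dppa3 (Stella), which protects maternal DNA methylation in the early embryo, read 2.03 or 2.04 on every array. Its only probe set was thus at background in both groups, and no fold is given. Dppa4, a nuclear DNA-binding protein that works with Dppa2, read 11.01 and 10.72 with vehicle and 10.38 and 10.44 with WIN 18,446. Both treated arrays were below both vehicle arrays, by 0.28 at the closest, and the vehicle arrays were 0.29 apart. The difference of -0.46 was not called (95% interval -0.81 to -0.11, adjusted p = 0.14). Dppa2, named after its values were seen, stood at 8.84 ± 0.62 (SD, n = 2) with vehicle and 8.47 ± 0.22 with WIN 18,446 (log2 difference -0.37, limma adjusted p = 0.575).

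The RNA-binding members had positive differences, none of them called. Lin28a read 6.24 and 6.23 with vehicle and 6.75 and 7.16 with WIN 18,446 in the probe set 1421749_at. The treated arrays were higher without overlap but 0.42 apart, and the difference of 0.72 (95% interval 0.12 to 1.32) had an adjusted p of 0.168. In the probe set 1437752_at the values were 5.29 and 5.83 with vehicle and 6.21 and 5.78 with WIN 18,446, which overlap (difference 0.43, adjusted p = 0.482). Dnd1, whose loss in 129 strain mice leads to germ cell loss and testicular teratoma, read 6.79 and 6.77 with vehicle and 7.14 and 7.28 with WIN 18,446. Its groups did not overlap, and the difference of 0.43 (95% interval -0.07 to 0.93) had an adjusted p of 0.289. Both Lin28a probe sets and Dnd1 kept a positive sign under every alternative in which they were tested.

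**Figure D2:**
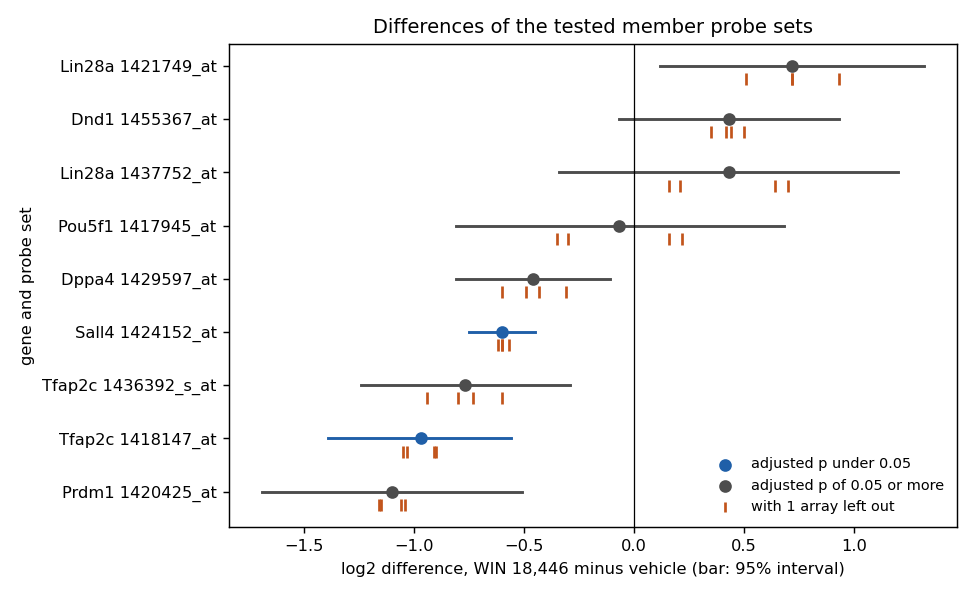
Log2 difference, WIN 18,446 minus vehicle (horizontal axis), of the 9 member probe sets tested (vertical axis). Points are the limma estimates, bars their 95% intervals and short ticks the estimates with 1 array left out, and blue marks an adjusted p under 0.05. The called probe sets of Sall4 and Tfap2c lie at -0.60 and -0.97, Prdm1 is lowest at -1.10, and the Pou5f1 ticks fall on both sides of 0.

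Germ cell markers outside the members were set beside them. Of 11 tested, 1 fell, 0 rose and 10 were not called, with a median difference of 0.023. The gene that fell was Tdrd9, a helicase of the piRNA pathway (-1.02, adjusted p = 0.0301), a call lost without either vehicle array, treated array 1, the level filter or the variance trend (adjusted p 0.0112 to 0.313 over 13 alternatives). The mean over these markers lay between 10.97 and 11.06 on all 4 arrays. Over the 11 markers, 6 differences were positive and 5 negative. Dazl, a germ cell RNA-binding protein, differed by 0.29 (adjusted p = 0.113), Tdrd5, a Tudor domain protein of germ cells, by -0.58 (0.143) and Ddx4, the germ cell RNA helicase, by 0.24 (0.23), each without overlap of the groups and none of them called. A second Dazl probe set read 9.39 and 9.89 with vehicle and 10.16 and 11.04 with WIN 18,446 (difference 0.96, limma adjusted p = 0.187). Among markers of the somatic cells, 5 of 9 tested Sertoli genes and 0 of 5 Leydig genes were called lower. So were 2 of 8 peritubular and stromal genes and 0 of 1 macrophage gene, and none was called higher. Differences ran from -1.25 to 1.25 over the Sertoli genes, 7 of them negative and 2 positive. They ran from -0.69 to -0.1 over the Leydig genes and from -1.47 to 0.06 over the peritubular and stromal genes. The Sertoli list means were 12.92 and 12.91 with vehicle and 12.60 and 12.52 with WIN 18,446. These were counted with 1 probe set per gene, of which 3.46% were called lower, 2.94% higher and 6.4% in either direction over the 10970 genes tested.

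The wider pluripotency network was a list of 30 other genes, of which 29 were on the array and 17 were tested. Of the 12 under the level filter, 5 were at background. These were Nanog, Esrrb, Prdm14, Gdf3 and Zscan10, which act in embryonic stem cells and their precursors, at or below 2.22 on every array in their brightest probe set. Of the 17 genes tested, 2 fell, 0 rose and 15 were not called, which is 11.8% called. The list was chosen with earlier results of these data known, so this share is not an independent result. Over the 10970 genes tested with 1 probe set per gene, 6.4% were called in either direction and 3.46% lower. Of the 2 network genes called, 1, Sox2, entered the test through its vehicle values alone. Sox2, the partner of OCT4 on DNA in stem cells, read 8.14 and 7.0 with vehicle and 3.51 and 4.24 with WIN 18,446. Both treated arrays were far below both vehicle arrays, and the vehicle arrays also differed from each other. As both treated values are under 5, Sox2 passed the level filter only through the group where it was high, and it was not tested at a mean of at least 7. Sox2 fell by 3.69 log2 units (95% interval -4.90 to -2.49, adjusted p = 0.0253). It is read by 1 probe set and its call was lost without vehicle array 1 (difference -3.12), without vehicle array 2 (-4.26) and without treated array 1 (-3.32), as well as without the level filter (adjusted p = 0.146) and without a variance trend (0.0608), the adjusted p ranging from 0.00716 to 0.28 over 12 alternatives. The other gene that fell was Nr0b1, an orphan nuclear receptor that binds OCT4 in stem cells and is also a gene of Sertoli and steroidogenic cells (-3.69, adjusted p = 0.00387, and 0.000197 to 0.241 over 13 alternatives, with the call lost without either vehicle array and without the level filter). Mycn, a Myc family factor, had a difference of 0.58 and was not called (adjusted p = 0.0552), but it was called higher in 5 of 13 alternatives, with adjusted p from 0.0168 to 0.349 over them. The median over the 17 genes was -0.0033 and the mean -0.40. Sox2 and Nr0b1, both at -3.69, pull the mean down, and the next lowest difference of the list was -0.49.

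Genes that work with Lin28a in the let-7 pathway were not called in the main fit, where 6.4% of all genes tested with 1 probe set per gene were called. Of 12 tested, 0 rose and 0 fell with limma (3 had an unadjusted p under 0.05), and the median was 0.0042. Drosha, the nuclease that makes microRNA precursors, read 13.88 on both vehicle arrays and 14.12 on both treated arrays (difference 0.24, adjusted p = 0.0613). In the alternative fit with 1 probe set per gene, limma called Drosha higher (adjusted p = 0.0382) and also Igf2bp1 (0.0456). Igf2bp1, an RNA-binding protein encoded by a let-7 target, read 5.90 and 6.24 with vehicle and 7.02 and 7.14 with WIN 18,446 in its brightest probe set (difference 1.01, adjusted p = 0.0782). A second Igf2bp1 probe set differed by -0.24 with overlapping groups (limma adjusted p = 0.773). Another, under the level filter, read 3.79 and 3.81 with vehicle and 4.51 and 4.48 with WIN 18,446. The last was at background. Tut7, which adds uridines to let-7 precursors, differed by -0.28 (adjusted p = 0.13). Lin28b, the paralog of Lin28a, had a highest value of 2.46 and was not tested.

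The lists around Sall4, Nanos and Dnd1, and Prdm1 held 1 called gene. Of all genes tested with 1 probe set per gene, 6.4% were called. Of 13 genes of the NuRD chromatin complex, which SALL4 binds, limma called 0 (3 had an unadjusted p under 0.05), and the smallest p-values were those of Hdac1 (0.30, adjusted p = 0.113), Rbbp4 (-0.22, 0.155) and Chd3 (-0.54, 0.158). Of 14 genes of the CCR4-NOT deadenylase and its Nanos and Pumilio partners, through which NANOS proteins and DND1 act on RNA, limma also called 0 (3 had an unadjusted p under 0.05). Nanos1 had a difference of 0.88 (adjusted p = 0.105), Cnot3 of -0.50 (0.178) and Cnot6 of 0.17 (0.196). Of 18 genes of germ cell specification around Prdm1, 11 were tested and 7 were under the level filter. Ifitm1, an interferon-induced membrane protein of early germ cells, fell by 1.05 log2 units (adjusted p = 0.0254), 0 rose and 10 were not called. With limma, 6 of the 11 had an unadjusted p under 0.05, in both directions. Ifitm1 read 12.84 and 12.61 with vehicle and 11.82 and 11.52 with WIN 18,446, and its call was lost without vehicle array 1 or 2, without the level filter (adjusted p = 0.126) and without a variance trend (0.072), the adjusted p ranging from 0.00495 to 0.31 over 13 alternatives. Alpl, the alkaline phosphatase by which primordial germ cells are stained, read 10.35 and 10.94 with vehicle and 11.61 and 11.84 with WIN 18,446 (difference 1.07, adjusted p = 0.0603), and was called higher in 6 of 13 alternatives (adjusted p from 0.0118 to 0.317). Hexim1, an inhibitor of transcription elongation, had a difference of -0.57 in its brighter probe set (adjusted p = 0.0784) and of -0.82 in the other, which was called (0.0385). The medians of these 3 lists were 0.011, 0.07 and 0.12.

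**Figure D3:**
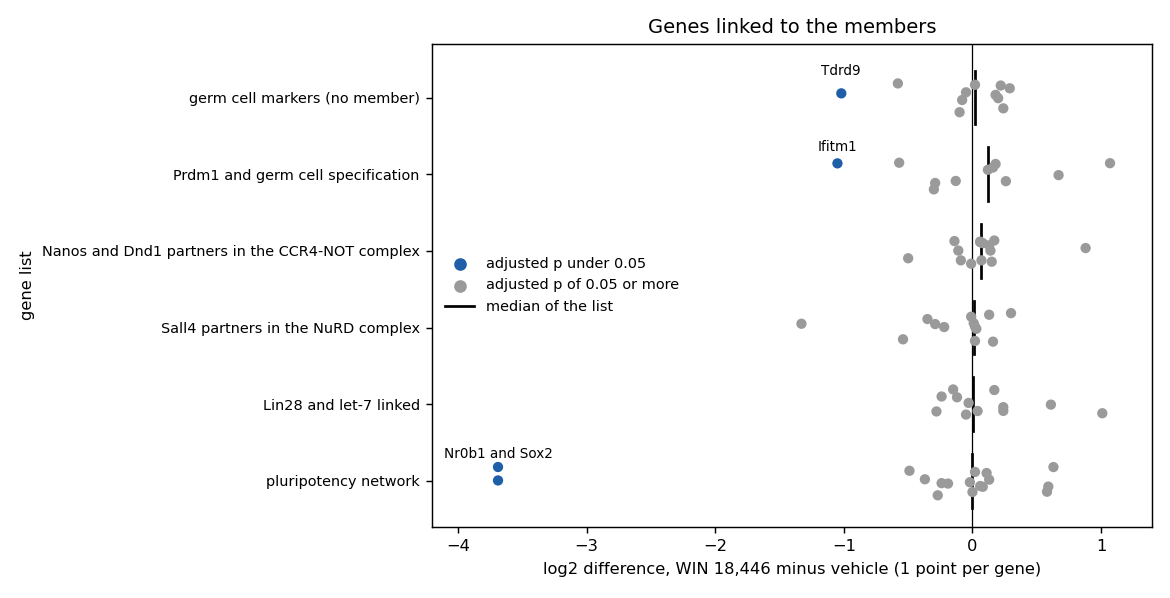
Log2 difference, WIN 18,446 minus vehicle (horizontal axis), of each tested gene on the lists of network genes and partners and of germ cell markers outside the members (vertical axis), 1 point per gene, with a black line at each list's median. Blue points have an adjusted p under 0.05: Nr0b1 and Sox2 at -3.69, Ifitm1 at -1.05 and Tdrd9 at -1.02. The medians lie between -0.0033 and 0.12.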

How the data were processed

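Total RNA of 4 cultured testis samples was amplified and hybridised to 1 array each. The deposited table holds log2 levels, 1 column per array, which the authors had already normalized between arrays; per the submitters' processing notes RMA and GCRMA were used, and which of them made the table, and its version, are not given in the sources used here. Values reach 16.2, which shows the log2 scale. The 64 control probe sets were left out. Of the remaining 45037, those reaching a level of 5 on average over all arrays were kept, and treated and vehicle samples were compared by lmFit and trended eBayes of limma 3.58.1 under R 4.3.3 (2 residual and 3.19 prior degrees of freedom, two-sided). An exact permutation test of 2 arrays against 2 cannot go below 0.333, so none is given. In GEO's platform annotation, a single symbol stands for 34945 probe sets, several for 932, which are not named, and none for 9160. On the lists, the brightest probe set on average stands for its gene. The members and the lists were chosen with earlier results of these data known. Named are all member probe sets and, of each list of related genes, the 3 genes of smallest p and any called. Cell type markers are given as counts, with ranges, medians or list means for some of the lists. Dppa2, Tdrd9, Dazl, Tdrd5, Ddx4, second probe sets and genes under the level filter were named after their values were seen. Alternatives were other level filters, quantile normalization, equal array medians, eBayes without a trend or with robust moderation, a block for the replicate number, leaving out each array in turn, and 1 probe set per gene. On simulated data with the variances of these probe sets, the fit recovered large changes, and false calls made up more than the nominal share in every run. Precision is limited by the number of arrays.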

Additional observations from a re-analysis of the deposited data

How the results depend on the processing

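The member counts and list counts rest on few arrays. Leaving out 1 array makes its group a single sample, whose variance is then taken from the other group. Over these fits limma called 0 to 1398 probe sets in all (0 without either vehicle array, 664 without treated array 1), 0 to 1 member probe sets (Sall4, without either treated array), 0 to 2 genes of the pluripotency network, 0 to 1 of the NuRD list and 0 to 1 of the Prdm1 list. Without a level filter it called 3 probe sets in all (5250 at an unadjusted p under 0.05), and 0 members, 0 network genes and 0 genes of the Prdm1 list. Without a variance trend it called 372 in all, 1 member (Prdm1, lower), 1 network gene and 0 of the Prdm1 list. The count of the Prdm1 list was 2 (1 higher, Alpl, and 1 lower) with a mean of at least 7, after quantile normalization and with robust moderation, and 3 (1 higher, Alpl, and 2 lower) with equal array medians and with 1 probe set per gene, where the let-7 list had 2, both higher. Mycn made 1 network gene higher with a mean of at least 7 (adjusted p = 0.0371), after quantile normalization (0.0423), with robust moderation (0.0479), with the block (0.0168) and with 1 probe set per gene (0.0241). With the replicate number as a block, 1467 probe sets were called in all, 2 members (Sall4 and Tfap2c), 1 gene of the NuRD list (lower) and 3 of the Prdm1 list (2 higher, 1 lower). Same-numbered samples did not deviate together (Pearson's r of the deviations from the group means was 0.014 across 20895 probe sets, which are not independent replicates), so the numbers were not taken as pairs. The sign of Pou5f1 turned after quantile normalization (0.0028), without vehicle array 2 (0.16) and without treated array 2 (0.22), and with 1 array left out it ranged from -0.35 to 0.22; no other tested member changed sign. Dppa2 ranged from -0.81 to 0.07 with 1 array left out, the latter without vehicle array 1. Where not stated, the cause was not tested. The median over all probe sets tested was -0.018 as deposited, 0.0013 after quantile normalization and -0.057 with equal array medians.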

Other observations

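Genes of the network under the level filter also differed between arrays, and are given as values chosen after they were seen. Tcl1, a co-activator of AKT signalling that embryonic stem cells express, read 3.67 and 3.96 with vehicle and 4.46 and 5.60 with WIN 18,446. Dnmt3l, the cofactor of DNA methylation in prospermatogonia, read 4.99 and 3.38 with vehicle and 2.64 on both treated arrays. Tfcp2l1, a transcription factor of naive stem cells, read 4.15 and 4.14 with vehicle and 3.25 and 4.17 with WIN 18,446, so that treated array 1 alone was low.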
